A study of Mus musculus with 714 samples.

Results

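At postnatal day 56 (pnd56), 22 sorted uterine cells of ICR mice had at least 1 count of Ltf and are called Ltf-positive here. Another 23 had none and are called Ltf-negative. These 45 cells are part of 714 single cells of the series. The cells were chosen by the count of Ltf itself, so the Ltf values below describe the choice. Single cells of the uterus had been sorted for CD326 (EpCAM), an adhesion protein of the epithelial surface, at pnd0, pnd7, pnd14, pnd28 and pnd56. CEL-seq, which copies RNA from barcoded primers and amplifies it linearly before reading transcript 3′ ends, gave the counts. No treatment, transgene or hormone status is given in the labels, and nothing says from how many animals the cells came. The cells of each age are therefore 1 sample, cells are not replicates, and no test between the cell sets was possible. Brackets hold 95% intervals, which cover the error of counting alone.

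Ltf codes for lactoferrin, an iron-binding antimicrobial protein that is secreted into milk, tears and uterine fluid. In the mouse uterus it is a classical oestrogen-induced gene of the epithelium, through oestrogen receptor alpha. Neutrophils also make lactoferrin and store it in their granules. The adult epithelium holds luminal cells, which line the cavity, and glandular cells, which secrete into it.

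The 22 Ltf-positive cells held from 1 to 47 Ltf counts each with a median of 6.5. This is a level of 5885 counts per 1000000 (CPM), with an interval of 5158 to 6686 CPM. The 4 highest cells, with 28 or more counts each, held 60.2% of these counts. Just inside the rule stood 5 cells with 1 count, and just outside it the 23 cells with 0. These 5 cells had 864 to 1701 total counts with a median of 1236, and the cells with 0 had a median of 1575. A cell with 0 counts at that median depth allows an Ltf level of up to 1905 CPM, by 3 counts of its total, and 7 Ltf-positive cells lay below that level. Over the 23 Ltf-negative cells together, 0 of 41791 counts allows up to 71.8 CPM. The 0 of these cells is the rule itself, and a cell without a count can still hold Ltf RNA.

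Ltf counts were present in 2.89% of cells at pnd0, 3.0% at pnd7, 16.8% at pnd14, 62.5% at pnd28 and 48.9% at pnd56 (exact interval 33.7 to 64.2%). After thinning to 1000 counts per cell the shares were 1.75% at pnd0, 1.13% at pnd7, 13% at pnd14, 55.8% at pnd28 and 46.5% at pnd56. Cells with an Ltf count were thus few in the first week, although those cells were deeper than the adult ones, with medians of 3037 counts at pnd0 and 2492 at pnd7.

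**Figure D1:**
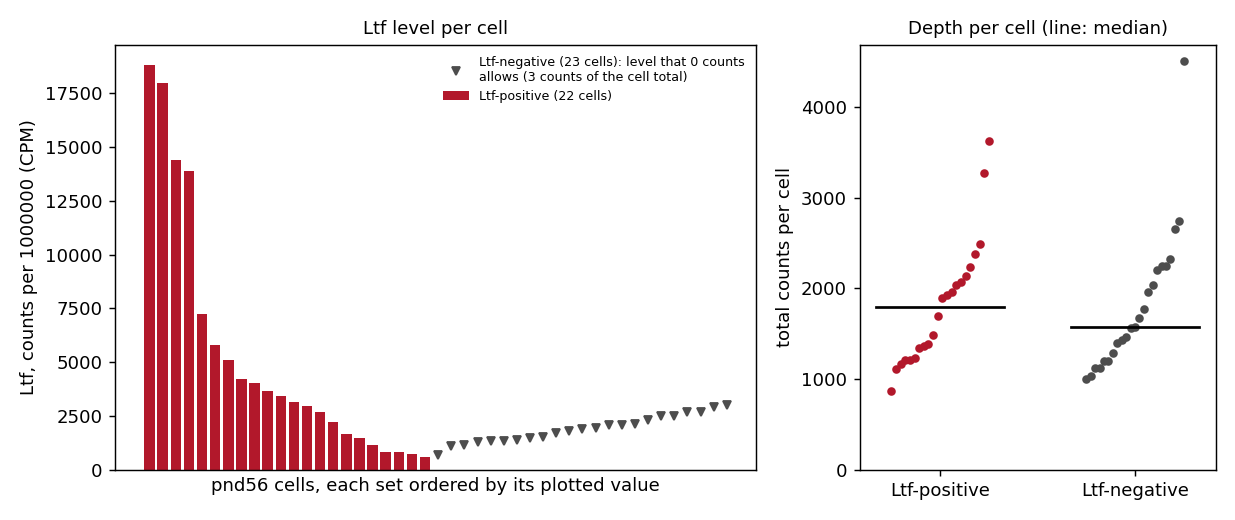
Left, Ltf level in CPM in each of the 22 Ltf-positive cells (red bars) and, for each of the 23 Ltf-negative cells (grey triangles), the level that 0 counts allows. Right, total counts per cell with the median of 1796 in Ltf-positive and 1575 in Ltf-negative cells as a line. A few cells hold most Ltf, and the depths of both sets overlap.

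Depth was similar in both sets. Totals ran from 864 to 3624 with a median of 1796 in Ltf-positive cells, and from 999 to 4509 with a median of 1575 in Ltf-negative cells. For all comparisons Ltf was removed and each cell was thinned to 1000 counts of the other genes, which left 21 Ltf-positive and 22 Ltf-negative cells, since 1 cell of each set was shallower. At this depth a cell showed a median of 50.9 genes per 100 counts in Ltf-positive cells (range 48 to 54.9) and 51.3 in Ltf-negative cells (range 40 to 59.2). The labels name no batch within the age. Log2 ratios are Ltf-positive over Ltf-negative cells.

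Epithelial keratin was present in nearly all Ltf-positive cells and in most Ltf-negative ones. Krt18, a keratin of simple epithelia, had counts in 95.5% of Ltf-positive and 87% of Ltf-negative cells, and Epcam, the gene of the sorted protein, in 72.7% and 34.8%. At equal depth Epcam had 20 counts in Ltf-positive and 7 in Ltf-negative cells, a log2 ratio of 1.58 [0.28, 3.07]. Cldn3, a tight junction claudin, had 39 and 14 counts and a log2 ratio of 1.55 [0.63, 2.54]. The list of keratin and junction genes had 18 in the table, of which 6 were measured (at least 20 thinned counts over both sets), with 2 at least 2-fold higher and 1 lower, where 14.0% of all measured genes were higher and 11.8% lower by that fold, and their median log2 ratio was 0.40.

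The Ltf-negative set held 3 cells with at least 1% of counts in stroma markers, and the Ltf-positive set held none. Stroma and fibroblast markers made up 4.37% of the counts of cell s-721, 2.34% of cell s-706 and 1.42% of cell s-674, all Ltf-negative, and at most 0.270% of any Ltf-positive cell. Cell s-721 held 54 of the 63 pnd56 counts of the collagen gene Col3a1 and 24 of the 29 of Dcn, the decorin gene. Cell s-706 held no Col3a1 but 28 of the 39 counts of Vim, the mesenchymal filament gene, and 52 of the 62 of Cd74, the MHC class II invariant chain. Its share of the stroma list was Vim alone. Class II genes made up 7.60% of its counts, and it had no count of Krt18 or Epcam. At equal depth the stroma list of 16 genes in the table had 5 counts in Ltf-positive and 84 in Ltf-negative cells (0.0238% and 0.382%), with per-cell ranges of 0 to 3 and 0 to 46. The part of these cells in the results was not tested, but the 24 genes named by rank and the lists with enough counts were also computed without them, and larger moves are stated beside the value.

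Neutrophil markers were near 0 in both sets, with 3 counts in Ltf-positive and 3 in Ltf-negative cells over 8 genes. The 3 in Ltf-positive cells were all Lcn2 in 1 cell, and Lcn2, lipocalin 2, is made by uterine epithelium as well. Immune markers had 8 and 7 counts, a log2 ratio of 0.26 [-1.40, 1.96] and 0.86 without the 3 cells with stroma markers. The remaining lists had few counts, with erythroid markers 0 and 0, endothelial markers 5 and 10, mesothelial markers 0 and 2, smooth muscle markers 0 and 7 (all in cell s-674), and ciliated cell markers 2 and 7. Squamous and basal markers had 0 counts in Ltf-positive and 12 in Ltf-negative cells, of which 7 lay in cell s-680, the cell with all 3 pnd56 counts of Krt14, a basal keratin.

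Several genes of small proline-rich proteins, a mucin gene, Cbr2 and the row of Nelfe were among the genes named as higher in Ltf-positive cells. Among all measured genes, 56 were at least 2-fold higher (14.0%) and 47 at least 2-fold lower (11.8%), and the median log2 ratio of all was 0.07. These counts describe 2 sets of cells of 1 sample and are not counts of changed genes. The genes named below were ranked without the cell of their largest count, 12 in each direction.

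Sprr2b had the highest ratio of the named genes. The Sprr2 family codes for small proline-rich proteins of the cornified envelope, several of which are induced by oestrogen in the mouse uterus. Per cell, Sprr2b had 0 to 62 counts with a median of 6 in Ltf-positive cells, and 0 to 7 with a median of 0 in Ltf-negative cells. It was counted in 16 of 21 and 7 of 22 cells, and its log2 ratio was 4.05 [3.34, 4.85], or 3.74 [3.02, 4.54] without cell s-743, which held 62 of its counts. The sets overlapped at the low end only: no Ltf-negative cell had more than 7 counts.

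Sprr2f had 0 to 29 counts with a median of 6 in Ltf-positive cells and 0 to 17 with a median of 1 in Ltf-negative cells, a log2 ratio of 1.38 [0.98, 1.79]. The ranges overlapped widely. Sprr2a2 and Sprr2a3 had log2 ratios of 1.73 and 1.74. These 2 rows held the same number of counts in 39 of 45 cells, so they are read as 1 measurement, and Sprr2a2 also overlaps Sprr2a1. The stromal-marker cell s-721 held 23 of the 43 Ltf-negative counts of Sprr2a2 at equal depth, and without it the ratio was 2.77. Sprr2g had 29 counts in Ltf-positive and 19 in Ltf-negative cells, a log2 ratio of 0.68 [-0.21, 1.59] whose interval includes no difference. Without its leading cell the ratio of Sprr2g was 1.27, and as deposited it had 70 and 32 counts.

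The row of Nelfe, a subunit of the negative elongation factor of transcription, had 0 to 30 counts with a median of 10 in Ltf-positive cells, and 0 to 6 with a median of 1 in Ltf-negative cells. Its log2 ratio was 3.12 [2.51, 3.78] and 2.96 without its leading cell. Within 500 bases of the 3′ end of Nelfe lies Cfb, on the other strand, which codes for complement factor B, a secreted protein. No source used here says whether the counting used strand, so reads of Nelfe and Cfb cannot be told apart in this row. The row of Cfb itself, looked up after the values of Nelfe were seen, had few counts as deposited, 13 in 7 Ltf-positive cells and 5 in 2 Ltf-negative cells.

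Cbr2, a carbonyl reductase, was counted in each of the 21 Ltf-positive cells and in 12 of 22 Ltf-negative cells. It had 1 to 27 counts with a median of 11 in Ltf-positive cells and 0 to 12 with a median of 1 in Ltf-negative cells, a log2 ratio of 2.0 [1.57, 2.44]. Muc1, the transmembrane mucin of the apical surface, had 0 to 7 counts with a median of 3 in Ltf-positive cells and 0 to 6 with a median of 0 in Ltf-negative cells. It was counted in 19 of 21 and 8 of 22 cells, with a log2 ratio of 1.61 [0.89, 2.38]. Plet1, an epithelial surface protein gene, had 45 and 13 counts and a log2 ratio of 1.86 [0.94, 2.87]. Its row overlaps the antisense gene Plet1os, which had a ratio of 2.39.

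Cxcl2, the gene of a chemokine that attracts neutrophils, had 30 counts in 11 Ltf-positive cells and 5 in 2 Ltf-negative cells, with a log2 ratio of 2.65 [1.27, 4.38]. Stxbp2, a syntaxin-binding protein of exocytosis, had 16 and 5 counts, and all 5 lay in 1 Ltf-negative cell. Psmc1, a proteasome ATPase gene, had 17 counts in 9 Ltf-positive cells and 6 in 3 Ltf-negative cells, a log2 ratio of 1.57 [0.16, 3.20]. Of the 6, 4 lay in cell s-735, and without it the ratio was 3.09 [1.01, 6.25]. Spink12, a protease inhibitor gene of the glandular list, depended on a single cell. It had 53 counts in 10 Ltf-positive cells and 22 in 4 Ltf-negative cells, a ratio of 1.34 [0.59, 2.12], but 19 of the 22 lay in cell s-721. Without that cell the ratio was 4.14 [2.52, 6.47], and with the counts as deposited it was 0.54.

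**Figure D2:**
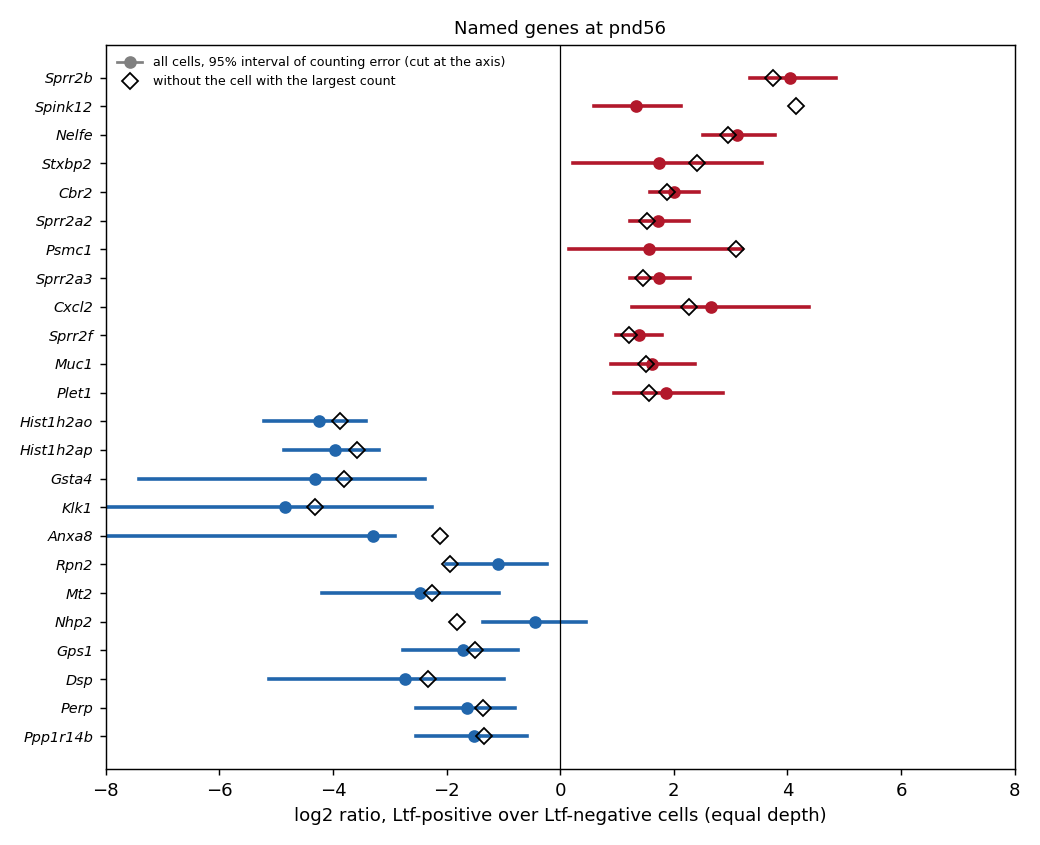
Log2 ratio of Ltf-positive over Ltf-negative cells at equal depth for the 24 named genes, higher ones in red and lower ones in blue, with 95% intervals of counting error, and the ratio without the cell of the largest count (open diamonds). Sprr2b has the highest ratio (4.05) and Klk1 the lowest (-4.84), and Spink12 (1.34 and 4.14), Psmc1 (1.57 and 3.09) and Nhp2 (-0.44 and -1.81) differ widely with and without their leading cell.

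The stretch before the start of Ltf is shown with those of Sprr2b and Sprr2f, the named higher genes of its oestrogen-linked list that lie in 1 gene cluster, and of Klk1, the named gene with the lowest ratio at equal depth. The sequences are from RefSeq (build GRCm38.p6), 250 bases up to the gene start. They lie at chr9:111019042-111019291, chr3:92316455-92316704, chr3:92364937-92365186 and chr7:44225110-44225359, all on the plus strand. Capitals mark AGGTCA or its reverse complement TGACCT, the half-site of oestrogen receptors and related nuclear receptors, and TATAAA, the TATA box letters.
Ltf: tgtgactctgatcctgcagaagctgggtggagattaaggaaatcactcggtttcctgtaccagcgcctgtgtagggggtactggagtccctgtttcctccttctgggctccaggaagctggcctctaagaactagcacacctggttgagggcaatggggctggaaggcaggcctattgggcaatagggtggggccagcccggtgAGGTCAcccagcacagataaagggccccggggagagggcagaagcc
Sprr2b: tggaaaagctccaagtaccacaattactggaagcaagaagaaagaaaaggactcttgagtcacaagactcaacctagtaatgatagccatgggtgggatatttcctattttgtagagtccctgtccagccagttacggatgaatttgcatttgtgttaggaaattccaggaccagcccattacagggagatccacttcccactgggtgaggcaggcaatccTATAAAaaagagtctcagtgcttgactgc
Sprr2f: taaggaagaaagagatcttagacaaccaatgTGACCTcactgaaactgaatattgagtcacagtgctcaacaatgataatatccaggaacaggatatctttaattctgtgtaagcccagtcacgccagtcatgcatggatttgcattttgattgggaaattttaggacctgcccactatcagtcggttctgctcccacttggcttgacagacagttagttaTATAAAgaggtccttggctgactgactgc
Klk1: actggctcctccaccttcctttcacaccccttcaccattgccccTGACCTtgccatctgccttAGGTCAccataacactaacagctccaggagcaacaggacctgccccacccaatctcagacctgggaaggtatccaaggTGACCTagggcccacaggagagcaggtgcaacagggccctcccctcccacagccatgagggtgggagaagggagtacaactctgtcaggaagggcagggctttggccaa
Counted back from the gene start, the half-site begins at -46 in Ltf. The window of Sprr2f holds 1, that of Klk1 holds 3 and that of Sprr2b none. TATAAA on the gene strand begins at -29 in both Sprr2 windows. Of 32851 windows of this length, 14.0% hold the half-site on either strand and 7.59% hold TATAAA. Among named genes with a window, 2 of 10 windows of higher genes and 3 of 10 windows of lower genes hold the half-site. These are matches of letters and say nothing of binding.

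Genes lower in Ltf-positive cells included histones, a kallikrein and the desmosome-linked genes Dsp and Perp, each carried by a part of the Ltf-negative cells. Klk1, tissue kallikrein, a secreted serine protease that releases kinins, had 1 count in 1 Ltf-positive cell, against 30 counts in 9 of 22 Ltf-negative cells with 0 to 10 per cell. Its log2 ratio was -4.84 [-10.19, -2.25], and -4.32 without its leading cell. With the counts as deposited, 6 in Ltf-positive and 58 in Ltf-negative cells, the ratio was -3.21 [-4.71, -2.0], and those of Anxa8 (-5.63), Hist1h2ao (-4.39) and Gsta4 (-4.01) were lower. As deposited, and looked at after these values were seen, Klk1 was counted in 11 of 45 cells, and none of these 11 was among the 18 cells with Spink12. Klk1 was counted in only 2 Ltf-positive cells, and 4 cells, all Ltf-negative, held both Klk1 and Sprr2b.

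Hist1h2ao and Hist1h2ap, replication-dependent histone H2A genes, held the same number of counts in all 45 cells and are read as 1 measurement. At equal depth Hist1h2ao had 0 to 4 counts in Ltf-positive cells and 0 to 63 in Ltf-negative cells, with counts in 6 of 21 and 12 of 22 cells. The log2 ratio was -4.25 [-5.22, -3.42], and -3.87 without cell s-735. Most of this lay in 5 cells, all Ltf-negative, that had 20 or more counts each and together 88.7% of the Ltf-negative counts, and cell s-706, without a count of Krt18, was 1 of them with 31. The other 17 Ltf-negative cells had 0 to 10 counts each.

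The summed counts of the cell division lists were also lower, at low counts. S phase genes had 29 counts in Ltf-positive and 59 in Ltf-negative cells over 23 genes in the table, a log2 ratio of their sum of -0.96 [-1.65, -0.29]. G2 and M phase genes had 7 and 29 counts over 25 genes, a ratio of -1.98 [-3.42, -0.76]. Of the S phase genes 15 had a count, 5 with more per cell in Ltf-positive and 10 with more in Ltf-negative cells. Of the G2 and M phase genes 12 had a count, 3 with more per cell in Ltf-positive and 9 with more in Ltf-negative cells. Pcna, the sliding clamp of DNA replication, had 4 counts in Ltf-positive and 11 in Ltf-negative cells, whereas Mcm5, a subunit of the replicative helicase, had 6 and 4. No member of either list had 20 counts, so no gene of these lists has a ratio of its own. The 5 histone-rich cells, chosen after their values were seen, held 24 of the 59 S phase and 15 of the 29 G2 and M phase counts of the Ltf-negative cells.

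Gsta4, a glutathione transferase that clears lipid peroxidation products, had 2 counts in Ltf-positive and 42 in 8 Ltf-negative cells, a log2 ratio of -4.33 [-7.42, -2.38]. Cell s-721 held 14 of these, cell s-680 held 11 and cell s-674 held 9, and without the 3 cells with stroma markers the ratio was -3.39. Anxa8, an annexin, had no count in Ltf-positive and 31 in 6 Ltf-negative cells, a log2 ratio of -3.30 or lower by a floor of 3 counts over the Ltf-positive cells. Of the 31, 18 lay in cell s-680, and without it the bound on the log2 scale was -2.12. Dsp, the desmoplakin gene, and Perp, a desmosome-associated membrane protein gene, had log2 ratios of -2.74 [-5.13, -1.0] and -1.63 [-2.54, -0.80]. Cell s-680 was also the leading cell of both, with 6 of 21 and 11 of 52 Ltf-negative counts, cell s-721 held 3 and 7, and cell s-674 held 3 and 8. Perp was counted in 10 Ltf-positive and 13 Ltf-negative cells. Other desmosome genes of the lists had too few counts to be measured. In Ltf-positive and Ltf-negative cells, Pkp2 had 6 and 1, Jup 1 and 1, and Dsg3 0 and 4.

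Mt2, a metal-binding metallothionein, had 5 counts in 3 Ltf-positive cells and 29 in 10 Ltf-negative cells, a log2 ratio of -2.47 [-4.20, -1.08]. Gps1, a COP9 signalosome subunit, had a ratio of -1.71 [-2.77, -0.75]. The row of Gps1 held the same number of counts in all 45 cells as that of Dus1l, which lies within 500 bases of its 3′ end on the other strand, so the counts cannot be assigned to either. Ppp1r14b, a phosphatase inhibitor gene, had -1.52 [-2.55, -0.58]. Rpn2, an oligosaccharyltransferase subunit, had 17 counts in 5 Ltf-positive cells and 38 in 14 Ltf-negative cells, with -1.09 [-2.01, -0.23] and -1.94 without its leading cell. Nhp2, a small nucleolar ribonucleoprotein gene, was named by the value without its leading cell, -1.81. With all cells it had -0.44 [-1.37, 0.46], an interval that includes no difference.

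**Figure D3:**
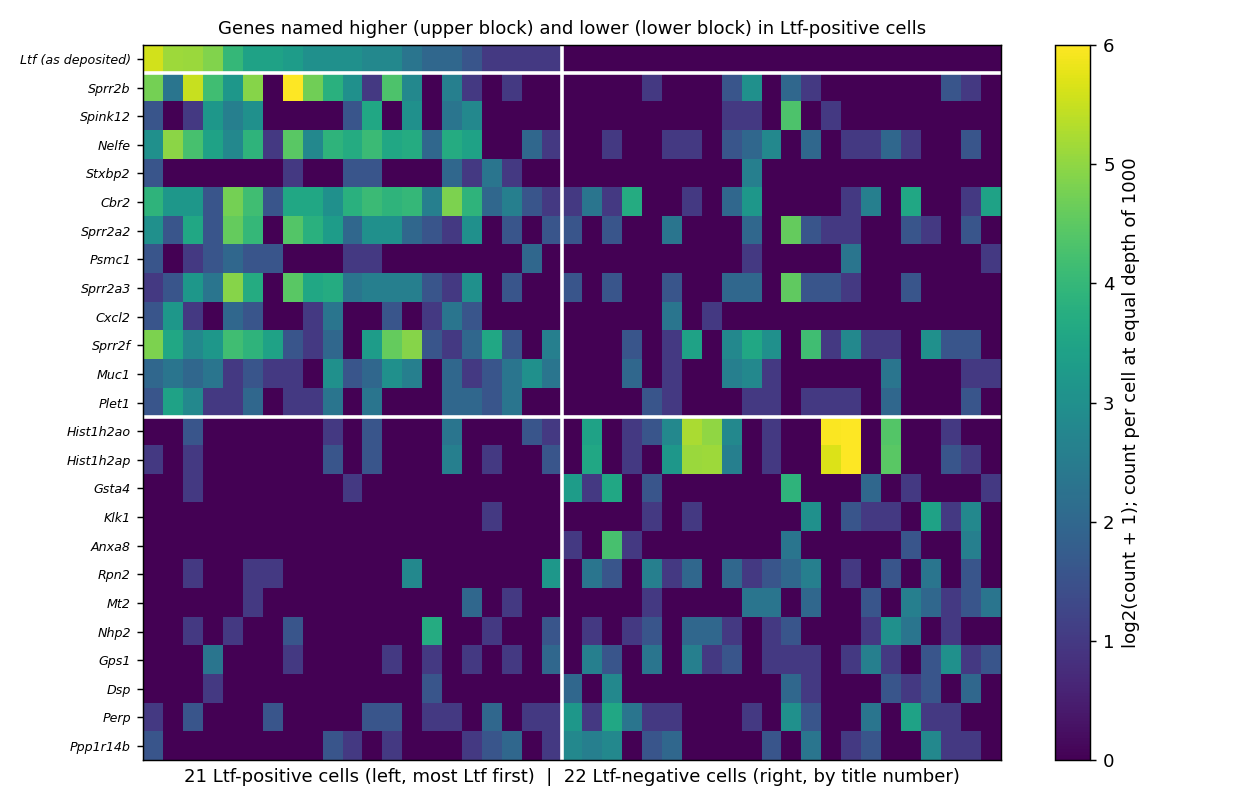
Counts per cell at an equal depth of 1000, as log2(count + 1), for Ltf (as deposited, top row) and the 24 named genes, in 21 Ltf-positive cells (left) and 22 Ltf-negative cells (right). Sprr2b, Nelfe and Cbr2 are high across most Ltf-positive cells, whereas the histone counts sit in 5 Ltf-negative cells.

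Within the Ltf-positive set the 5 cells with 1 Ltf count differed from the others in several named genes. Of these, 4 reached the equal depth. The classes and the genes shown by class were chosen after their values were seen. Sprr2b averaged 0.250 counts per cell in them, against 13.9 in the 10 cells with 2 to 9 Ltf counts, 18.3 in the 7 cells with 10 or more, and 0.773 in the Ltf-negative cells. Nelfe averaged 1.0, 11.7, 12.3 and 1.14 in the same order, and Cbr2 2.75, 13.3, 11 and 2.64. For these 3 genes the cells with 1 Ltf count lay within the range of the Ltf-negative cells. Muc1 differed, with a mean of 4.25 in the cells with 1 Ltf count, 2.90 with 2 to 9, 2.57 with 10 or more and 1.0 with none.

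Prap1 and Wfdc2 had their highest mean in the cells with 1 Ltf count. Prap1, a proline-rich secreted protein gene of the uterine epithelium, averaged 38 counts per cell in these 4 cells (5 to 85), 4.90 with 2 to 9 Ltf counts (1 to 12), 8.86 with 10 or more (3 to 33) and 11.2 with none (0 to 99). Over both sets its level at equal depth was 12524 CPM in Ltf-positive and 11182 CPM in Ltf-negative cells, a log2 ratio of 0.16 [-0.09, 0.42]. Cell s-757, Ltf-negative, was its leading cell, and without it the ratio was 0.84. Wfdc2, a whey acidic protein-type secreted protein gene, averaged 13.5, 5.00, 4.71 and 3.86 in the same order.

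**Figure D4:**
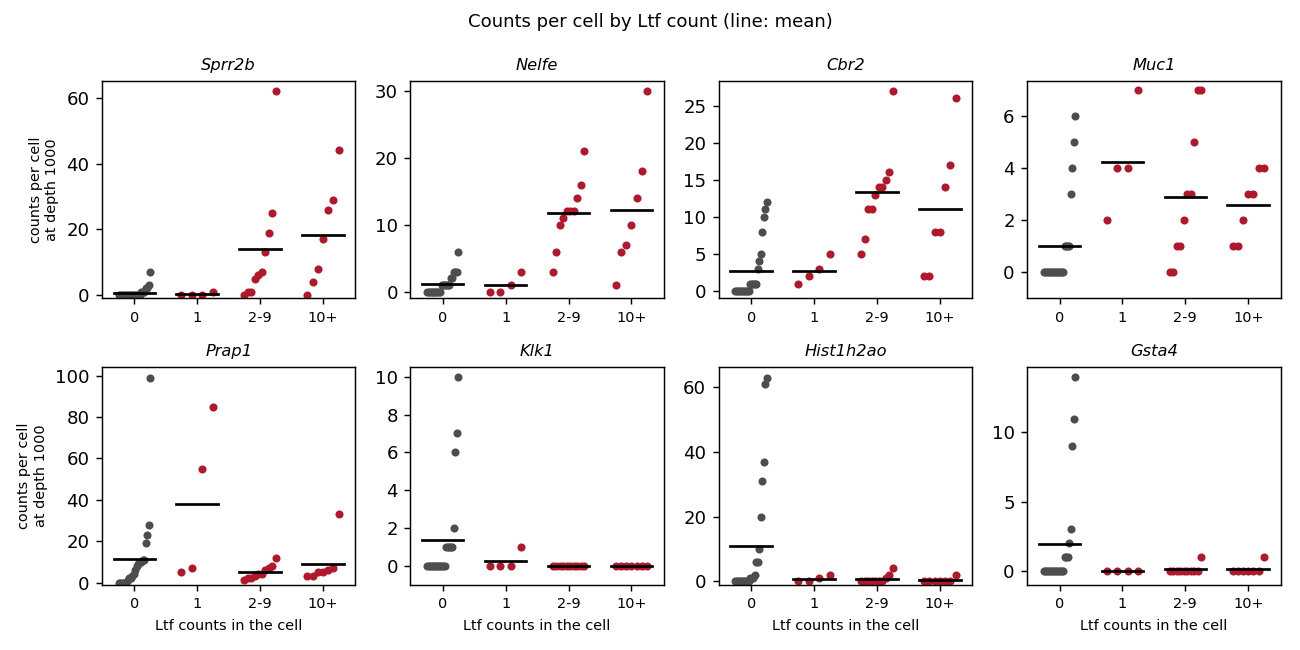
Counts per cell at an equal depth of 1000 for 8 genes, in cells with 0 (grey), 1, 2 to 9 and 10 or more Ltf counts (red), with the mean as a line. Sprr2b, Nelfe and Cbr2 are high from 2 Ltf counts upward, while Prap1 has its highest mean, 38, at 1 Ltf count.

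The genes whose counts ranked most like the Ltf share over the 43 thinned cells were Nelfe, with a Spearman rho of 0.73, Sprr2b with 0.67, Cbr2 with 0.64, Sprr2a2 with 0.56, Sprr2a3 with 0.53, Cxcl2 with 0.51, Gsto1 with 0.49 and Muc1 with 0.46. Over the genes with at least 30 counts the median rho was 0.02, and 12 reached 0.4. Within the 21 Ltf-positive cells alone, Sprr2b had 0.62 and Gsto1, a glutathione transferase gene, 0.61, while Cbr2 had 0.17 and Muc1 -0.21. As 22 of the cells are tied at 0 by the rule, the values over all cells largely restate the ratios above. The points share 1 sample and 1 depth, and the values are descriptions of sparse counts.

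Oestrogen-responsive genes other than Ltf had a median log2 ratio of 0.68, beside 0.07 for all measured genes. Over the other settings this median ran from 0.25, with Ltf counted after thinning, to 1.15, with every cell weighted equally. Without the 3 cells with stroma markers it was 0.47. The list had 23 genes in the table, of which 11 were measured, and 4 of these were at least 2-fold higher and 1 at least 2-fold lower, beside 14.0% and 11.8% of all measured genes. The higher ones were Sprr2b, Sprr2f, Muc1 and the mucin gene Muc4, with 1.65 [0.26, 3.27]. The lower was Gpx3, a secreted glutathione peroxidase gene, with -1.62 [-2.88, -0.50]. Car2, a carbonic anhydrase gene, had 0.70 [0.18, 1.22] and Clu, the clusterin gene, 0.43 [-0.24, 1.11]. Fos had -0.33 [-0.80, 0.14], and Padi2 had 0.07 [-1.28, 1.41] and -1.0 without its leading cell. Padi2 had 11 and 11 counts at equal depth, but 44 in Ltf-positive and 22 in Ltf-negative cells as deposited. Esr1, the gene of oestrogen receptor alpha itself, had 23 counts in 12 Ltf-positive cells and 5 counts in 5 Ltf-negative cells, a log2 ratio of 2.27 [0.84, 4.02] and 1.90 without its leading cell. As deposited, Esr1 had 29 counts in Ltf-positive and 13 in Ltf-negative cells, a smaller difference than at equal depth. At equal depth Pgr, the progesterone receptor gene, had 0 and 2 counts, and the progesterone-responsive list had 11 and 11.

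The secretory and antimicrobial list had a median of 0.31 over 7 measured genes of 17 in the table, with 1 at least 2-fold higher and 1 lower, close to the 14.0% and 11.8% of all measured genes. Without the 3 cells with stroma markers the median was 0.10, and the log2 ratio of the sums went from 0.22 to 0.033. Pigr, the gene of the polymeric immunoglobulin receptor, had 26 counts in 9 Ltf-positive cells and 7 in 4 Ltf-negative cells, a ratio of 1.96 [0.72, 3.41], whereas Klk1 was the lower one. Spp1, the osteopontin gene, had -0.96 [-1.70, -0.26], and 0.38 without its leading cell. The mucus layer list held 0.557% of the counts of Ltf-positive and 0.255% of those of Ltf-negative cells, a ratio of the sums of 1.13 [0.66, 1.62], with Muc1, Muc4 and Fcgbp measured.

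Among genes of antigen presentation, the class I and interferon list had a median of 0.87 over 6 measured genes of 19 in the table, and a log2 ratio of the sums of 0.44 [0.19, 0.70]. Ly6e, an interferon-inducible surface protein gene with 0.04 [-0.36, 0.44], and H2-D1, a class I heavy chain gene with 0.54 [0.0020, 1.08], had the most counts. B2m, the class I light chain gene, had 1.46 [0.23, 2.84], Tapbp, which loads peptides, 1.59 [0.38, 2.96] and Ifitm1, an interferon-induced membrane protein gene, 1.20 [0.41, 2.05]. Psmb8, an immunoproteasome subunit gene, had -1.25, and -0.22 without cell s-706. Class II genes had 6 counts in Ltf-positive and 79 in Ltf-negative cells, but 78 of the 79 lay in cell s-706, and without the 3 cells with stroma markers the log2 ratio of the sums was 2.44.

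The other lists lay near the median of all genes or had few members measured. The luminal list had a median of 0.36 over 5 genes, immediate early and heat shock genes 0.29 over 9, protein folding and secretion 0.38 over 5, glycolysis 0.14 over 6 and oxidative phosphorylation -0.07 over 13. The glandular list had 62 and 26 counts, most of them Spink12, and a log2 ratio of the sums of 1.32, or 3.0 without the 3 cells with stroma markers. Iron handling genes held 1.2% of the counts of Ltf-positive and 0.945% of those of Ltf-negative cells, led by the ferritin light chain gene Ftl1 with a ratio of 0.41 [0.10, 0.72]. Ratios of the sums were 0.54 for steroid receptors and cofactors, 0.27 for complement, 0.31 for ion and water transport, -0.38 for lipid synthesis, 0.07 for retinoid genes, 0.50 for Wnt genes and 0.42 for apoptosis genes. The retinoid ratio was 0.52 without the 3 cells with stroma markers.

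The same split was made at younger ages, in cells that the choice did not use. At pnd28, the measured named higher genes had ratios below those of pnd56. They had been chosen for high ratios at pnd56, which alone favours lower values elsewhere, so this is not read as a difference between ages. There, 35 Ltf-positive and 21 Ltf-negative cells, 34 and 18 at equal depth, had median totals of 1595 and 1614 counts. The sets also differed in epithelial and stroma markers. Krt18 had a log2 ratio of 2.04 [1.43, 2.70], beside 0.49 at pnd56. Col1a2, a collagen gene, had -5.38 [-10.74, -2.75], and Dcn -0.89 [-1.52, -0.25] but -0.09 without its leading cell. Vim went the other way, with 0.85 [-0.65, 2.64]. Cd74 had 2.86 [2.08, 3.76]. The sets were thus not matched for epithelial content, and the part of this in the named genes was not tested. With Sprr2a2 and Sprr2a3 read as 1, 6 of the named higher genes were measured there, and 4 were higher in Ltf-positive cells, beside 50.2% of all measured genes. Plet1 had 27 counts in Ltf-positive and 6 in Ltf-negative cells of pnd28 and a log2 ratio of 1.25 [-0.05, 2.82]. Sprr2a3 had 0.84 [-0.34, 2.19], Cbr2 0.47 [-0.05, 1.02] and Nelfe 0.46 [-0.43, 1.43], so each of these intervals includes no difference. Muc1 had -0.16 and Spink12 -1.78, and Spink12 had 2.09 without its leading cell. Sprr2b had too few counts at pnd28 to be measured. With Hist1h2ao and Hist1h2ap read as 1, 9 of the named lower genes were measured, and 6 were lower, beside 49.8% of all measured genes. The histone row Hist1h2ao had -0.37, Gsta4 -0.70 and Perp -0.61, while Nhp2 had 1.54.

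At pnd14, where the 29 Ltf-positive cells were 16.8% of the cells, 6 of the named higher genes were measured and 4 were higher. Muc1 had 15 counts in Ltf-positive and 15 in Ltf-negative cells, a log2 ratio of 2.26, and Cbr2 had -0.31. Of the named lower genes, counted in the same way, 9 were measured and 3 were lower, with Hist1h2ao at 0.35 and Gsta4 at 1.21. Of all 1802 genes measured at pnd14, 43.6% were higher and 56.4% lower in Ltf-positive cells. Among genes of the lists, Clu had 2.34 [1.62, 3.08] at pnd14, -0.60 [-1.30, 0.10] at pnd28 and 0.43 [-0.24, 1.11] at pnd56. At pnd28 it was 0.19 without its leading cell, an Ltf-negative cell with 15 counts. The ages share no cells, and the difference between ages was not tested.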

How the data were processed

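The deposited table holds whole-number counts per gene for each of 714 cells, which the authors made. Of its 12479 gene rows, 2 with a repeated, date-turned name were left out, and the others were used as they stand. TopHat, Cuffnorm and the mm9 build are named in the submitters' processing notes. No source used here says whether molecular identifiers were collapsed or strand was used, so intervals cover the error of counting alone.

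The pnd56 cells were split by the count of Ltf, at least 1 against 0. Ltf was removed and each cell was thinned without replacement to 1000 counts (seed 1). Ratios are of summed counts, with exact 95% intervals from the binomial split of the sum. A gene was measured with at least 20 thinned counts over both sets, and a set at 0 was given a floor of 3 counts over the set. Named genes had counts in at least 15% of cells of the higher set and at least 1.5-fold without the leading cell. They were ranked by the bound of that interval nearest to no difference, 12 per direction. Measured list members and the 8 genes most like Ltf by rho could also be named. The members, the 32 gene lists and the tests were chosen with earlier results of these data known. Promoter windows are from RefSeq and gene neighbours from GENCODE. The steps were tested on simulated data. Python 3.11.15, numpy 2.4.6, scipy 1.17.1, pandas 2.3.3 and matplotlib 3.10.9 were used.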

Additional observations from a re-analysis of the deposited data

How the results depend on the processing

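Of the genes measured, 14.0% were at least 2-fold higher and 11.8% at least 2-fold lower in Ltf-positive cells. These shares were 16.1% and 16% of 820 genes with counts as deposited, 14.1% and 12% at 500 counts per cell, 15.4% and 16% of 820 genes with every cell weighted equally, 17.5% and 18.5% of 924 genes with a minimum of 10 counts, and 9.77% and 7.52% with a minimum of 50. The counts behind them moved by over 1.5 times with the number of genes tested: they were 56 and 47, against 26 and 22 at 500 counts and 13 and 10 with a minimum of 50. Ltf-positive and Ltf-negative cells had 63.9 and 64 genes per 100 counts at 500 counts per cell, and 44.9 and 46.1 at 1500. Of the values of the named genes under the alternatives, 26 moved outside their main interval. Among named genes whose main interval excluded no difference, 0 values changed sign. These genes were chosen in the same cells, by a rule that required their direction to hold without the leading cell. The absence of sign changes is therefore no support for their ratios. Nhp2, whose interval includes no difference, could not be counted as a change of sign. The median log2 ratio of the secretory list, 0.31, was -0.13 for at least 2 Ltf counts against 0 or 1, and kept its sign in the other settings. The log2 ratio of the summed secretory list, 0.22, was -0.14 at 1500 counts, -0.27 for at least 2 Ltf counts against 0, -0.58 for at least 2 against 0 or 1, and -0.14 with Ltf counted after thinning. The luminal sum, 0.48, was -0.081 and -0.00029 in the last 2 of these settings. The stroma sum, -4.0, was 2.18 without the 3 cells with stroma markers, a setting chosen after seeing the data. As these Ltf-negative cells were left out by their share of this same list, the choice itself fixed the direction of that change. The 2.18 rests on 5 counts in Ltf-positive cells and is no result about stroma markers. The class II sum, -3.65, was 1.12 at 1500 counts, 2.44 without those cells and 2.44 in cells with Krt18, also chosen after seeing the data. Each of these settings left out cell s-706, with 1198 counts in total, which held 78 of the 79 Ltf-negative class II counts at equal depth. The 2.44 rests on 6 counts in Ltf-positive cells and is no result about class II genes. Apart from the number of genes tested and the cells left out, the causes of these moves were not tested. No paired analysis was possible because the labels give the cells no replicate numbers shared across groups and the results come from no test. At 1000 counts per cell, a gene of few counts can go undetected in cells that hold its RNA.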
